A study of Triticum aestivum and Aegilops tauschii and Triticum carthlicum with 33 samples.

Results

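PIMT (LOC543193, also called PCM) is the wheat gene for protein L-isoaspartyl methyltransferase. The platform annotation gives it 1 probe set out of 1273 that carry 1 gene symbol and stand for 771 genes. The gene was chosen by its measured levels, because earlier results of these arrays showed them to follow the presence and dose of the D genome. Levels between groups that differ in genome content are therefore given as a description with no test. For PIMT, tests were kept to groups of the same genome content, and since a dose pattern favours small differences there too, a difference that was not called is weak information.

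Asparagine and aspartate residues in ageing proteins turn spontaneously into isoaspartate, which puts a kink in the protein backbone. PIMT moves a methyl group from S-adenosylmethionine onto such residues and so starts their return to normal aspartate. In plants the enzyme is best known from seeds, where in Arabidopsis it contributes to longevity and germination. Bread wheat carries 3 related genomes, named A, B and D, and most of its genes exist as a copy in each. The RefSeq annotation of bread wheat (assembly IWGSC CS RefSeq v2.1) places LOC543193 on chromosome 2D, a chromosome of the D genome. Whether the probe set also detects the A and B copies is not known here, since its probe sequences were not used. In tetraploids, low expression of those copies therefore cannot be told apart from weak or absent binding of their transcripts. Nor can a lower level per cell be told apart from fewer cells that express the gene.

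Leaf RNA from plants grown in chambers was hybridised to the Affymetrix wheat array, with 3 arrays in each of 11 groups. The tetraploids, with genomes BBAA, were durum wheat TTR13, wild emmer TD265 (subspecies dicoccoides), Blackbird (subspecies carthlicum) and Extracted-tetra, which holds the BBAA genomes recovered from a bread wheat by crossing to a durum line and backcrossing. Diploid Aegilops tauschii, the source of the D genome, was represented by lines TQ18 and 30A, and natural bread wheat by TAA10 (BBAADD). XX329 is a hexaploid resynthesized with Extracted-tetra as the mother and TQ18 as the D parent. Allo-960S7 is a synthetic hexaploid of Blackbird and 30A after 7 selfed generations. For each of these hexaploids an RNA mix of 2 parts tetraploid and 1 part diploid parent served as the additive level. Each group is 1 line, so a difference between groups is a difference between those lines, and p-values measure only the spread between arrays.

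The deposited values are log2 summaries of each probe set. Array medians lay between 4.37 and 4.48 log2 units. Leaf origin was checked on PsbO and PsbP, proteins of the oxygen-evolving complex, which stood at 14.2 to 14.5 on all arrays, and on rbcl, the Rubisco large subunit, at 7.36 to 10.3. Of 8 seed storage genes, 7 stayed at or below 5.27 on every array, while the avenin-like gene avnlb stood at 9.42 to 10.3. Hybridisation controls averaged 9.04 to 9.48 on 12 arrays (the Allo-960 mix, Allo-960S7 and both their parent lines) and 9.62 to 10.2 on the other 21. That division of the arrays is referred to below as the control gap. It coincides with whole lines, so in any comparison across it the gap and the lines cannot be told apart.

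PIMT was lowest in tetraploids, intermediate in hexaploids and mixes, and highest in the diploids. In durum TTR13 the 3 arrays read 5.88, 5.48 and 6.05 log2 units (mean 5.80 ± 0.29, SD, n = 3). Blackbird arrays read 5.91, 6.17 and 6.49 (mean 6.19 ± 0.29, SD, n = 3). Extracted-tetra arrays read 6.20, 6.72 and 6.42 (mean 6.45 ± 0.26, SD, n = 3). These groups overlapped from one to the next, and even the lowest mean lay 1.43 log2 units above the lowest array median. Wild emmer TD265 stood apart from them with 7.52, 7.13 and 7.29 (mean 7.32 ± 0.20, SD, n = 3). Every TD265 array exceeded every array of the other tetraploids.

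Bread wheat TAA10 read 7.97, 8.05 and 8.34 (mean 8.12 ± 0.20, SD, n = 3). The resynthesized XX329 read 8.28, 8.46 and 7.43 (mean 8.05 ± 0.55, SD, n = 3), so its replicate 3 lay 0.86 log2 units under the next array. Allo-960S7 read 7.39, 7.47 and 7.72 (mean 7.53 ± 0.17, SD, n = 3). The 3 hexaploids thus spanned 0.60 log2 units between their means, against 1.51 for the 4 tetraploids. XX329 mix read 7.65, 7.47 and 7.15 (mean 7.43 ± 0.25, SD, n = 3). Allo-960 mix read 7.12, 7.75 and 7.54 (mean 7.47 ± 0.32, SD, n = 3). Both mixes overlapped TD265 and Allo-960S7, and only 0.21 log2 units separated the means of these 4 groups.

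Among the diploids, 30A read 8.87, 8.84 and 9.05 (mean 8.92 ± 0.11, SD, n = 3) and TQ18 read 9.06, 9.19 and 9.26 (mean 9.17 ± 0.10, SD, n = 3). All 6 diploid arrays exceeded all arrays of every other group, and TQ18 was 10.3-fold above TTR13 on the scale of the group means. Of the 10 steps between neighbours in the order of means, 7 joined groups whose arrays overlapped. The exceptions were the step from Extracted-tetra to TD265 (0.87 log2 units), from TAA10 to 30A (0.80) and from 30A to TQ18 (0.25). In the last of these the nearest arrays were 0.01 log2 units apart.

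**Figure D1:**
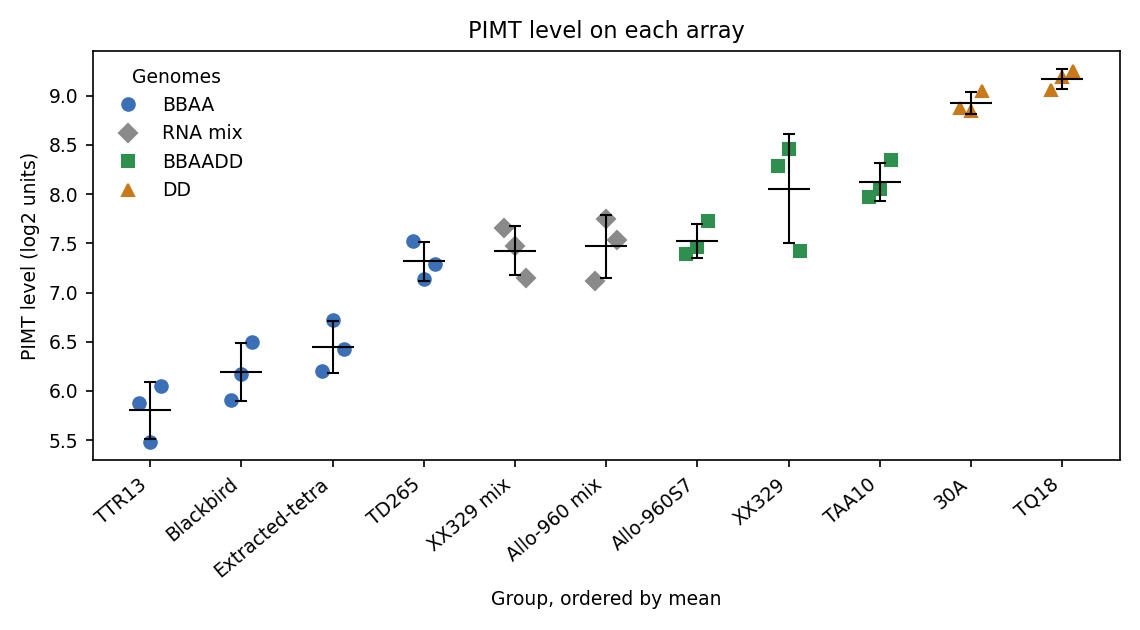
PIMT level in log2 units (vertical axis) on each of the 33 arrays, by group in order of the mean; symbols mark the genome content, horizontal bars the group mean and error bars the SD of 3 arrays. Tetraploid means run from 5.80 to 7.32, hexaploid means from 7.53 to 8.12 and diploid means from 8.92 to 9.17.

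Pooled over the groups, PIMT varied more between arrays of a group than most probe sets did. Its residual SD was 0.28 log2 units against a median of 0.18 over all 61179 probe sets tested, and 90.0% of them had a lower one. The groups were not alike in this, with an SD of 0.55 in XX329 and of 0.10 (TQ18) to 0.32 (Allo-960 mix) in the others. After limma's moderation the pooled SD of PIMT was 0.26. This moderated SD sets the width of every interval below, about 0.43 log2 units to either side of a difference between 2 groups of 3 arrays.

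Without the D genome, PIMT in Extracted-tetra stood 1.67 log2 units (3.19-fold) below TAA10, the bread wheat type whose BBAA genomes it carries. The distance of TAA10 from the natural tetraploids depended on the line. It was 2.32 log2 units for TTR13, 1.93 for Blackbird and 0.81 for TD265. Extracted-tetra therefore lay within the range of the natural tetraploids. No test is attached to these values, because they are the pattern by which the gene was chosen. The actin gap, described below as a stand-in for RNA quality, also differed between Extracted-tetra and TAA10. It was 0.13 to 0.61 log2 units on the Extracted-tetra arrays and −0.59 to −0.25 on those of TAA10. Its part in the difference of PIMT between these lines was not tested.

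Between tetraploids, where genome content is the same, PIMT differed by line, with wild emmer highest. With limma's moderated test and Benjamini-Hochberg adjustment over all probe sets, TD265 exceeded TTR13 by 1.51 log2 units (2.85-fold, SE 0.21, adjusted p = 1.62e-06). This comparison called 22.3% of all probe sets at the adjusted threshold of 0.05. The excess of TD265 over Extracted-tetra was 0.87 (limma, SE 0.21, adjusted p = 0.00208), in a comparison that called 28.1%. Over Blackbird it was 1.12 (limma, SE 0.21, adjusted p = 0.000129), with 20.1% called, and this pair lies across the control gap. All 3 calls held with each array left out in turn and under every other setting tried, but the excess over Blackbird shrank with 1 of them by over 1.5 times. It fell to 0.52 (limma adjusted p = 0.0471) when each array was centred on its hybridisation controls, which shifts the median of all probe sets in this pair to −0.57, and was 0.76 (limma adjusted p = 0.0273) with the actin covariate described next.

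Extracted-tetra exceeded TTR13 by 0.64 log2 units (limma, SE 0.21, adjusted p = 0.0407; 12.2% of probe sets called), and their arrays did not overlap. That call was lost without replicate 2 or replicate 3 of Extracted-tetra (0.51 and 0.66, limma adjusted p = 0.205 and 0.0898) and without replicate 1 or replicate 2 of TTR13 (0.68 and 0.48, limma adjusted p = 0.0638 and 0.217). When the gap between the actin control probe sets at the 3′ and 5′ ends, a stand-in for RNA quality, entered as a covariate, it shrank to 0.30 (limma, SE 0.24, adjusted p = 0.575). That actin gap (3′ minus 5′) was 0.13 to 0.61 log2 units on the Extracted-tetra arrays and −0.40 to −0.10 on those of TTR13. Its part in the result was not tested further.

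Blackbird did not pass the test against TTR13 or Extracted-tetra. TTR13 lay 0.39 log2 units below it (95% confidence interval −0.82 to 0.04, limma adjusted p = 0.23; 16.3% of probe sets called). Extracted-tetra lay 0.26 above it (interval −0.17 to 0.68, limma adjusted p = 0.417), in a comparison that called 24% of probe sets. Both pairs lie across the control gap. When each array was centred on its hybridisation controls instead, which shifts the median of all probe sets by about −0.55 log2 units in these pairs, TTR13 minus Blackbird became −0.96 and passed, and Extracted-tetra minus Blackbird became −0.28. Both changes are about the size of the shift. The actin covariate, which left the median of all probe sets within 0.02 of 0 in these pairs, gave −0.79 (limma adjusted p = 0.0429, passing) and −0.49 (limma adjusted p = 0.544). The actin gap on the Blackbird arrays was −1.20 to −0.55.

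In the diploids, TQ18 exceeded 30A by 0.25 log2 units (interval −0.18 to 0.68, limma adjusted p = 0.456), while 18.5% of all probe sets were called. This pair too lies across the control gap. Control centring turned the sign of the PIMT difference (−0.50) and moved the median of all probe sets from −0.0051 to −0.75. The actin covariate also turned the sign (−0.24, limma adjusted p = 0.671), with the median of all probe sets at 0.00018.

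In the hexaploids, PIMT of XX329 did not pass the test against bread wheat. XX329 minus TAA10 was −0.07 log2 units (interval −0.50 to 0.36, limma adjusted p = 0.952), in a comparison that called 2.14% of probe sets. Without replicate 3 of XX329 the difference was 0.25 and without replicate 3 of TAA10 it was 0.04, neither of them called. Allo-960S7 was 0.60 below TAA10 (1.51-fold, limma, SE 0.21, adjusted p = 0.0399), its arrays did not overlap those of TAA10, and 22% of probe sets were called. That call lies across the control gap. It was lost without replicate 1 or 2 of Allo-960S7 (−0.53 and −0.57, limma adjusted p = 0.132 and 0.11) and without replicate 2 or 3 of TAA10 (−0.63 and −0.48, limma adjusted p = 0.0639 and 0.163). Control centring gave −0.14 while it moved the median of all probe sets to 0.47, so PIMT stayed below that median by about as much as before. The actin covariate also gave −0.14 (limma adjusted p = 0.811), with the median of all probe sets at 0.01. The actin gap was −1.32 to −1.13 in Allo-960S7 and −0.59 to −0.25 in TAA10, and its part in the result was not tested further. Of 9 settings other than a left-out array, 6 kept the call of Allo-960S7 below TAA10. Control centring, the actin covariate and a repeated quantile normalization lost it. Over these settings the limma adjusted p ran from 0.0054 (replicate block) to 0.811.

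**Figure D2:**
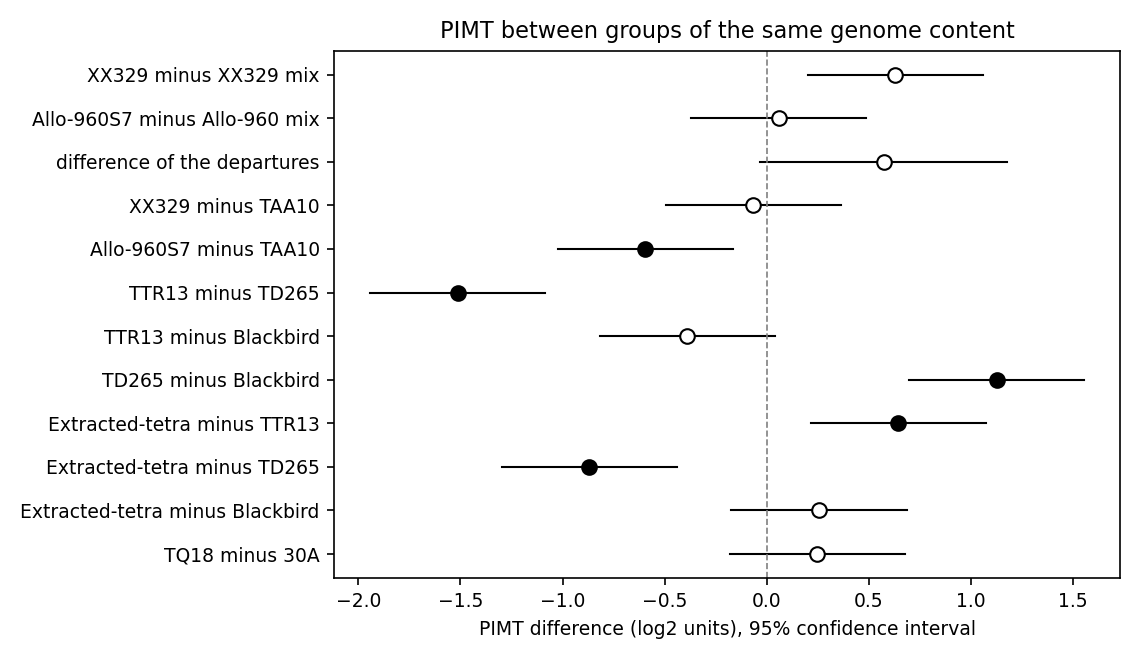
Differences of PIMT in log2 units (horizontal axis, first group minus second) for 12 comparisons, 11 of them between 2 groups of 3 arrays and 1 the difference of the departures, that is of XX329 from its mix minus that of Allo-960S7 from its mix. Lines are 95% confidence intervals from limma and filled points passed the adjusted threshold of 0.05; 5 passed, 3 of which involve TD265.

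The mixes address whether a hexaploid expresses PIMT at the level its parents' RNA gives when simply combined. The parents were far apart, TQ18 6.59-fold above Extracted-tetra and 30A 6.63-fold above Blackbird. XX329 exceeded its mix by 0.63 log2 units (1.55-fold, interval 0.20 to 1.06), which did not pass the adjusted threshold (limma, SE 0.21, unadjusted p = 0.00551, adjusted p = 0.136; 1.88% of probe sets called). XX329 replicate 3, at 7.43, was the array that lay among the mix arrays. Without it the difference was 0.94 (limma, SE 0.20, adjusted p = 0.00435) and passed. It also passed with array weights (0.75, limma adjusted p = 0.0431) and with the actin covariate (0.79, limma adjusted p = 0.0381). It did not pass with any other single array left out, where it was lowest without replicate 2 of XX329 (0.43, limma adjusted p = 0.478), nor under the other settings tried, among them the fit limited to both groups (limma adjusted p = 0.6) and the same fit with the replicate block (limma adjusted p = 0.375).

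Allo-960S7 minus its mix was 0.06 log2 units (interval −0.37 to 0.49, limma adjusted p = 0.932), in a comparison that called 8.54% of probe sets. The departures of the 2 hexaploids from their mixes differed by 0.57 (interval −0.03 to 1.18, limma adjusted p = 0.383; 4.02% called). Without replicate 3 of XX329 this difference was 0.89 and passed (limma adjusted p = 0.0483). A departure of PIMT from its mix in XX329 alone was thus not established with all arrays in the fit.

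The additive level itself was uncertain for this gene. Calculated from the parents' means on the linear scale at 2 parts to 1, it came to 7.97 log2 units for XX329 and 7.72 for Allo-960S7. The physical mixes read lower, by 0.54 and 0.25, where the median over all probe sets was −0.11 and −0.12 (SD over probe sets 0.18 and 0.15). Those medians take in all probe sets, whatever the distance between their parents. They are therefore no close match for PIMT, whose parents were far apart. Whether its shortfall is unusual among such genes was not tested. Against the calculated level, XX329 differed by 0.09 and Allo-960S7 by −0.19. In the space between its parents, measured on the log2 scale as a percentage of the way from tetraploid to diploid, XX329 lay at 59.1%, its physical mix at 35.9% and its calculated mix at 55.8%. Allo-960S7 lay at 48.9%, its physical mix at 46.8% and its calculated mix at 55.9%.

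**Figure D3:**
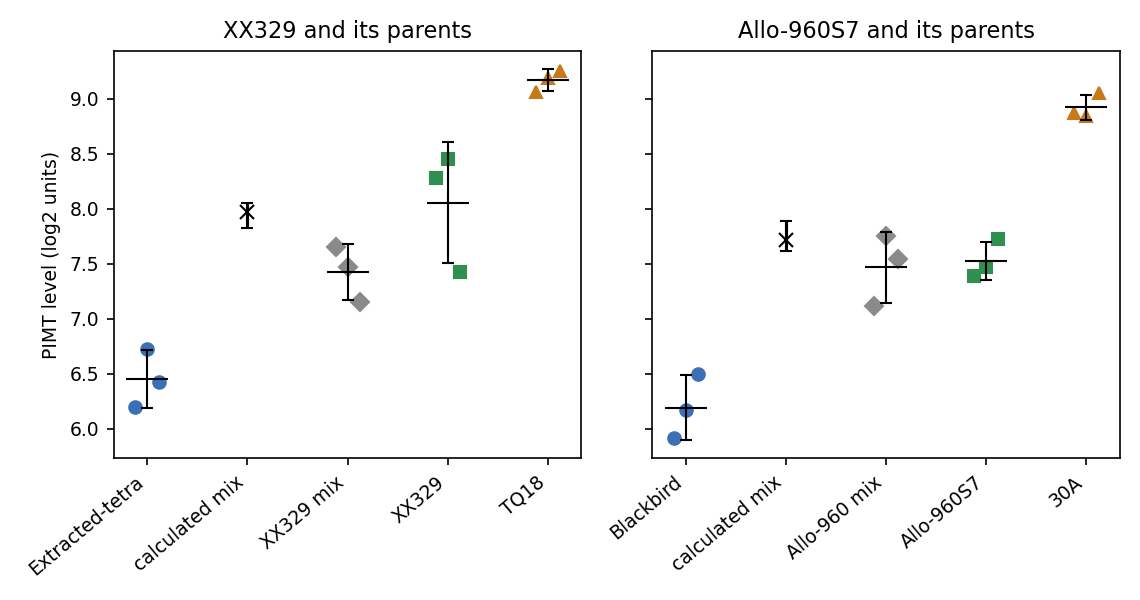
PIMT level in log2 units (vertical axis) in each hexaploid, its parents and its mixes; points are arrays (blue circles tetraploid, grey diamonds physical mix, green squares hexaploid, orange triangles diploid), horizontal bars means and error bars the SD of 3 arrays. Crosses give the level calculated from the parents' means, with a range from same-numbered parent arrays. XX329 (mean 8.05) lies near its calculated mix (7.97) and above its physical mix (7.43), and Allo-960S7 (7.53) near its physical mix (7.47).

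For comparison, a D-enriched set was formed of the 1557 probe sets for which TQ18 and 30A each passed the test and exceeded every natural tetraploid by 4-fold or more. PIMT was not among them. It was 3.12 and 3.37 log2 units higher in 30A and TQ18 than in TTR13, and 2.73 and 2.98 higher than in Blackbird. Against TD265 the gaps were 1.61 and 1.85, short of 4-fold. The median D-enriched probe set lay 1.85 below TAA10 in Extracted-tetra, 1.85 in TTR13, 1.85 in TD265 and 1.93 in Blackbird. PIMT lay below TAA10 by 1.67, 2.32, 0.81 and 1.93 in the same order, with the value for TD265 above the upper quartile of the set. The set was required to exceed TD265 by 4-fold, which PIMT did not, so that gap follows from how the set was formed. In TQ18 and 30A the D-enriched median stood 1.73 and 1.62 above TAA10, and PIMT 1.05 and 0.80. The set was formed on high levels in both diploids, so its height there also follows in part from how it was formed. In XX329, XX329 mix, Allo-960S7 and Allo-960 mix the median was 0.01, 0.03, −0.13 and −0.02, and PIMT −0.07, −0.70, −0.60 and −0.65. The last 3 PIMT values lay under the lower quartile of the D-enriched set, and XX329 within its quartiles.

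**Figure D4:**
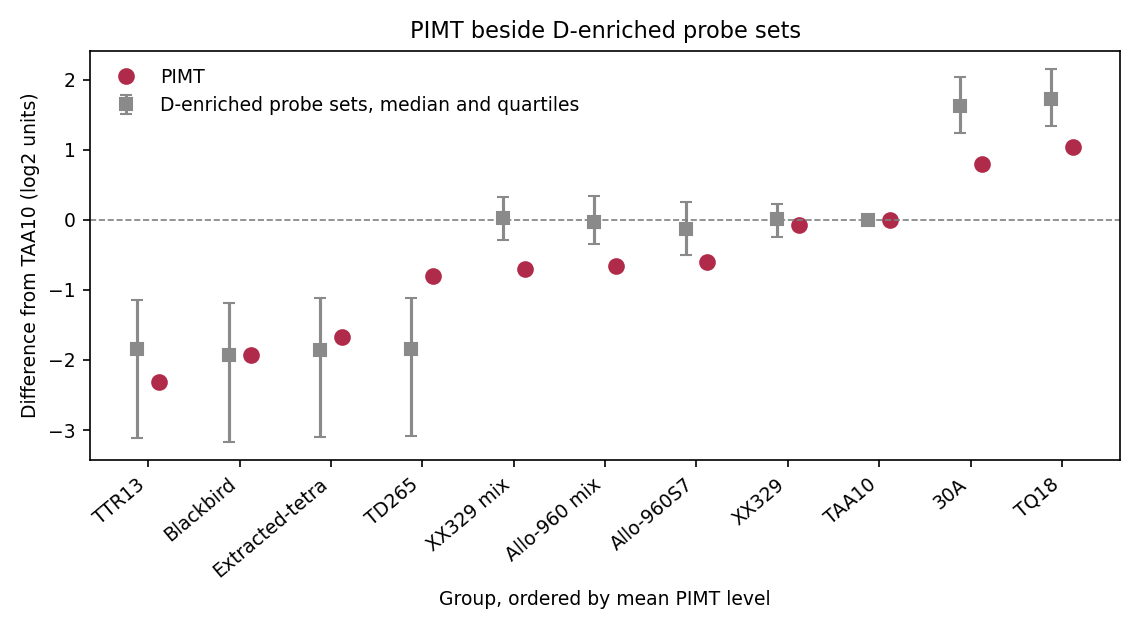
Difference from TAA10 in log2 units (vertical axis) by group, for PIMT (circles, group mean) and for the 1557 D-enriched probe sets (squares, median with quartiles). PIMT is above the upper quartile in TD265 (−0.81) and below the lower quartile in XX329 mix (−0.70), Allo-960S7 (−0.60), Allo-960 mix (−0.65), TQ18 (1.05) and 30A (0.80). The set was formed on the diploids and natural tetraploids, so its position in those groups follows in part from that choice.

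Array by array, the D-enriched median in XX329 was 7.02, 6.99 and 6.89 log2 units, and lowest in replicate 3, the array with low PIMT. The gap there was 0.10 log2 units, against 0.86 for PIMT. In XX329 mix it was 7.07, 7.21 and 6.69, again lowest in the array with the lowest PIMT value, replicate 3. The lowest arrays by both measures were also the same in TAA10, TTR13, Extracted-tetra, 30A and Allo-960 mix, but not in Allo-960S7, Blackbird, TD265 or TQ18. In Allo-960S7, Blackbird and TQ18 the array with the lowest PIMT had the highest D-enriched median. Over the 33 arrays PIMT followed this median with r = 0.90, and over the 11 group means with r = 0.92. These are descriptions, since the arrays share groups and normalization and the gene was chosen for this likeness.

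By place in the reference, PIMT was set beside the 275 other annotated genes on D chromosomes. Their median difference of Extracted-tetra from TAA10 was −0.01 log2 units (quartiles −0.24 and 0.17), beside 0.07 for 252 genes on A and 0.05 for 233 on B chromosomes. Of these D genes 17 lay at least as far below TAA10 as PIMT, with 1 on A and 0 on B chromosomes. Between Aegilops tauschii and the natural tetraploids PIMT stood at 2.61 log2 units, a value reached or passed by 21 of the 275 D genes, 3 of the A genes and 1 of the B genes. Since PIMT was chosen for this pattern, its far place in both comparisons follows at least in part from that choice. Of the 4 annotated genes nearest to PIMT on 2D, none was called lower in Extracted-tetra. The same comparison called 42 of the 275 D genes and 7.04% of all probe sets lower, so 4 genes are too few to read against these shares. On one side eIF4B (LOC543417), a translation initiation factor 20 genes away, was 0.37 higher in Extracted-tetra than in TAA10 (limma adjusted p = 0.00964), and LOC543463, 159 genes away, was at 0.27 (adjusted p = 0.514). On the other side LOC543492 and LOC100037567, 129 and 151 genes away, were at 0.61 and −0.13 (limma adjusted p = 0.102 and 0.715), the former from mean levels of 4.48 and 3.87, near or under the array medians. The actin covariate was not run on Extracted-tetra minus TAA10 for these genes.

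Likeness of pattern was measured as Pearson's r of the 11 group means, among genes whose means spanned at least 1 log2 unit. Of 21387 such probe sets, 912 (4.26%) had r of at least 0.9 with PIMT and 76 at least 0.95. Of the 1557 D-enriched probe sets, 557 had r of at least 0.9. Among 371 annotated genes 9 reached 0.9, a smaller share than among all probe sets. RefSeq places 6 of them on D chromosomes (of 132 compared), 2 on A (of 128) and 1 on B (of 107), and none has a name beyond its LOC number.

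Of the 30 genes with a name, raftin1b (LOC543009, on chromosome 7B) was most like PIMT (r = 0.83). It belongs to the RAFTIN proteins, known in wheat from the anther tapetum and pollen development. Its tetraploid means ran from 4.53 to 5.02 log2 units, its hexaploid means from 4.82 to 5.80, and 30A and TQ18 stood at 6.17 and 6.45. It was followed by xip (LOC542997, r = 0.63), a xylanase inhibitor, GA20ox1d (LOC543325, r = 0.58), an enzyme that makes the precursors of active gibberellins, and eIF4E (LOC543485, r = 0.58), the cap-binding translation factor. Glc1 (LOC543469, r = 0.58) and the histone gene wcH2B-8 (LOC543184, r = 0.56) came next. PIMT, chosen for its pattern over genome contents, had tetraploid means up to 7.32 (TD265) and hexaploid means from 7.53 (Allo-960S7). Arrays of TD265 and Allo-960S7 nevertheless overlapped. In none of these 6 genes did the means of tetraploids and hexaploids separate, a contrast with PIMT that follows in part from the choice of the gene. For xip, tetraploid means ran from 4.84 to 8.53 and hexaploid means from 7.83 to 8.71. The most opposite patterns were those of the beta-tubulin Tubb5 (LOC543261, r = −0.85), the TATA-binding protein gene TBP1 (r = −0.85) and the cation channel TPC1 (LOC543074, r = −0.83). By Spearman's rho raftin1b (0.79) and xip (0.75) still came first and close together, while GA20ox1d (0.44) and wcH2B-8 (0.33) dropped to ranks 7 and 9, and TPC1 (−0.95) was the most opposite.

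The lists of genes near to PIMT in function held 10 named genes of the methyl donor cycle, other methyltransferases, protein quality control and desiccation. They had group means with r between −0.63 and 0.57 to those of PIMT. Extracted-tetra minus TAA10 called 1 of the 10 lower and 0 higher (0 higher at an unadjusted p under 0.05; 7.04% and 11.3% of all probe sets), with a median of −0.03 log2 units beside 0.05 over all probe sets. The lower gene was PEAMT1 (LOC543067), which methylates phosphoethanolamine with the same methyl donor, at −0.39 (limma, SE 0.12, adjusted p = 0.025). SAHH, which removes the S-adenosylhomocysteine that PIMT and other methyltransferases release, was at −0.14 (SE 0.30, limma adjusted p = 0.828). COMT1 (LOC543449), a methyltransferase acting on lignin precursors, was at 0.34 (SE 0.25, limma adjusted p = 0.423). Here too the actin covariate was not run.

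Between Aegilops tauschii and the natural tetraploids 4 of the 10 were higher and 1 lower (30.3% and 21.3% of all probe sets), with a median of 0.04 log2 units beside 0.06 over all. PEAMT1 was 0.55 higher (limma, SE 0.08, adjusted p = 9e-07) and FKBP70 (LOC543314), of the peptidyl-prolyl isomerase family that helps proteins fold, was 0.27 higher (limma, SE 0.11, adjusted p = 0.0381). That did not hold for every line, as the FKBP70 mean of TD265 (10.12) exceeded those of TQ18 (9.88) and 30A (9.89). LEA1 (LOC543476) and COR410, associated with desiccation and cold, were 0.25 and 0.31 higher (limma adjusted p = 0.00462 and 0.0133). Their means over all arrays, 2.98 and 3.35, lay under the array medians, where the size of a fold is not secure. LEA1 stood at 3.37 in TQ18 but at 2.92 in 30A, under its mean in TD265 (2.99). EMH2 (LOC543480), a seed desiccation gene, was 0.24 lower (limma adjusted p = 0.0301). These differences were all under 1.5-fold, where PIMT stood at 2.61 log2 units.

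In XX329 minus its mix, where PIMT read 0.63 and was not called, limma called 0 of the 10 genes (1 at an unadjusted p under 0.05). This comparison called 1.88% of all probe sets. Allo-960S7 minus its mix, which called 8.54% of all probe sets, called 1 of the 10, PEAMT1, at −0.67 (limma, SE 0.12, adjusted p = 0.000474), with SAHH at −0.92 (SE 0.30, limma adjusted p = 0.0542). Against TAA10, Allo-960S7 had 3 of the 10 lower, PEAMT1 at −0.73, COMT1 at −0.76 and LEA1 at −0.33 (limma adjusted p = 4.96e-05, 0.0247 and 0.0344), again across the control gap and in a comparison that called 22% of all probe sets. Also against TAA10, XX329 had 1 lower, SAHH at −1.13 (limma, SE 0.30, adjusted p = 0.0392), where 2.14% of all probe sets were called. With lists this small, counts of 1 to 3 are near these background shares or too few to read against them. Over the 11 group means r with PIMT was 0.52 for PEAMT1, −0.11 for COMT1 and −0.27 for SAHH.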

How the data were processed

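Each probe set has 1 deposited log2 expression value per array; RMA and limma are named, without versions, in the submitters' processing notes. The table held 61290 probe sets, and 111 Affymetrix controls were left out of the tests. Groups came from the sample titles. All 33 arrays entered 1 linear model with a mean per group, using limma 3.58.1 under R 4.3.3 (22 residual and 28.5 total degrees of freedom for PIMT), with Benjamini-Hochberg adjustment over 61179 probe sets within each comparison and a threshold of 0.05. An exact permutation test of 3 arrays against 3 cannot give a p under 0.1, so none was run.

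Each gene was read from its probe set with the highest mean, taking an x-type probe set, whose probes may match several transcripts, only in the absence of any other. Names came from the platform annotation and RefSeq, which matched 770 of 771 genes. RefSeq gave symbols and aliases only, so the lists hold genes matched by those; FKBP70 was added from its known family. Named genes are the 6 most and 3 least alike by r and the list members with calls. The members, comparisons and lists were chosen with earlier results of these data known, and the comparison by chromosome and by neighbouring genes was added after the values were seen. No sequence of the gene was used here.

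Same-numbered replicates were judged to pair only where all 3 deviations from group means correlated above 0.1, which held for TQ18 and 30A (r 0.10 to 0.14) and in none of the other comparisons of 2 groups. The main fit used no pairing, and the replicate block was tried as a setting in every comparison. For its range and its test, the calculated mix joined same-numbered arrays of the 2 parents. Whether those arrays pair was not checked.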

Additional observations from a re-analysis of the deposited data

How the results depend on the processing

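Settings tried were those given here plus median centring, moderation with trend and robust options, and leaving out the dimmest 33.3% of probe sets. Of 115 values of the 12 comparisons under settings other than a left-out array, 96 kept direction and side of the threshold; of 78 with an array left out, 64 did. The cause of the changes was not tested, except that smaller fits have fewer arrays. TD265 against TTR13, Blackbird and Extracted-tetra kept its call throughout (ranges −1.60 to −1.48, 0.52 to 1.22 and, for Extracted-tetra minus TD265, −1.26 to −0.80).

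Centring on hybridisation controls moves every probe set alike: the median of all became 0.47 for Allo-960S7 minus TAA10, −0.56, −0.57 and −0.55 for TTR13, TD265 and Extracted-tetra minus Blackbird, and −0.75 for TQ18 minus 30A, so changes of that size are not particular to PIMT. It gave −0.14 for Allo-960S7 minus TAA10, −0.96 for TTR13 minus Blackbird (now called), 0.68 for Extracted-tetra minus TTR13 (call lost), −0.28 for Extracted-tetra minus Blackbird and −0.50 for TQ18 minus 30A. The actin covariate gave, in that order, −0.14, −0.79 (called), 0.30 (lost), −0.49 and −0.24, and 0.79 (called) for XX329 minus its mix. Quantile normalization again gave −0.53 for Allo-960S7 minus TAA10 (call lost). Array weights gave 0.75 for XX329 minus its mix (called), −0.018 for Allo-960S7 minus its mix and 0.16 for XX329 minus TAA10. The calculated mix gave 0.09 for XX329 and −0.19 for Allo-960S7. Extracted-tetra minus TTR13 stayed at 0.64 but lost its call without the 12 arrays below the control gap (limma adjusted p = 0.0659), in a fit limited to both groups (0.0529) and with the replicate block in that fit (0.0805). The replicate block changed no other call of PIMT. For TQ18 minus 30A, the pair whose numbers pair the arrays, it gave 0.25 (SE 0.12, limma adjusted p = 0.249), with 8.91% of probe sets called against 9.45% in the limited fit without it and 18.5% in the fit of all groups.

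With single arrays left out, XX329 minus its mix ran from 0.43 to 0.94, Allo-960S7 minus its mix from −0.12 to 0.20, the difference of departures from 0.37 to 0.89, XX329 minus TAA10 from −0.27 to 0.25, Allo-960S7 minus TAA10 from −0.69 to −0.48, and Extracted-tetra minus TTR13 from 0.48 to 0.77.

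The share of all probe sets called moved by over 1.5 times in many settings. For XX329 minus its mix it ran from 0.0539% (replicate block) to 6.54% (calculated mix), for XX329 minus TAA10 from 0.616% to 4.2%, for Allo-960S7 minus its mix from 4.65% to 20.5% and for the difference of departures from 1.57% to 6.83%. Across the control gap, control centring called 60.3% (Allo-960S7 minus TAA10) to 87.2% (TQ18 minus 30A), and the actin covariate as little as 5.58% (Extracted-tetra minus Blackbird). The lowest shares elsewhere were 14.6% for TTR13 minus TD265, 7.17% for Extracted-tetra minus TTR13 and 16.8% for Extracted-tetra minus TD265.

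Arrays carry no read depth, and 3 per group limit precision. All PIMT values lay above the array medians.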
